A study of Mus musculus with 18 samples.

Results

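Genes of fatty acid oxidation, and genes that control it, were examined in the livers of hypothyroid and control mouse pups. The 8 genes were Cpt1a, Cpt2, Acadm, Hadha, Ehhadh, Pdk4, Ppara and Fgf21. They were chosen by name and not by a measured value, though earlier results of these data were known. They were found on the arrays through the RefSeq accession of each probe, which gave 10 probes for 8 of the 16535 genes with a named probe, since Cpt1a and Fgf21 had 2 probes each. The brightest probe of a gene is given first, and the other probe is given beside it.

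The livers were of male C57BL/6 pups killed at postnatal day (PND) 15, with 5 control and 5 hypothyroid pups, each on its own array. Dams of the hypothyroid pups drank sugar water (1%) with methimazole (MMI, 0.05%) and perchlorate (1%) from PND 12, while dams of the controls drank sugar water alone, and the pups of both groups were injected with PBS before sacrifice. MMI blocks thyroid hormone synthesis and perchlorate blocks iodide uptake by the thyroid. The drugs were in the drinking water of dams and their litters, each pup came from a separate litter, and serum hormone was not analysed here. Liver RNA and a universal mouse reference RNA, a pool of RNA from many cell types, were labelled with different dyes and hybridised to the same array. Each value below is the log2 ratio of liver to reference, so that 1 unit is a doubling, and a change is the hypothyroid mean minus the control mean. In whole liver, fewer cells of a type and less RNA per cell cannot be told apart.

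In the suckling liver the fat of milk is a main fuel. Long-chain fatty acids are joined to carnitine by CPT1, carried into the mitochondrion and released by CPT2, and then shortened step by step by acyl-CoA dehydrogenases and the trifunctional protein. The acetyl-CoA that results feeds the citric acid cycle or the synthesis of ketone bodies, which leave the liver as fuel for other organs. PPARalpha is the nuclear receptor through which fatty acids raise the expression of these enzymes, and thyroid hormone is known to act on several of the same genes, such as Cpt1a, through its own receptors.

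The stretches of the genome just before 4 of the genes are shown because they bear on how such genes are read: Cpt1a is a known thyroid hormone target, Acadm had the smallest p of the 8, Hadha shares its upstream stretch with the gene of its partner subunit, and Fgf21 was the gene with a lower mean in hypothyroid pups. Sequences are from RefSeq (GRCm38.p6), 5′ to 3′ on the strand of the gene, ending 1 base before the transcript start in the promoter table, which for Cpt1a lies inside the annotated span of the gene. Capitals mark AGGTCA (the core motif to which nuclear receptors bind), TATAAA (the TATA box), CCAAT (the CCAAT box), GGGCGG (the GC box) and CACGTG (an E-box), read on both strands.
Cpt1a, chr19:3323151-3323300, plus strand: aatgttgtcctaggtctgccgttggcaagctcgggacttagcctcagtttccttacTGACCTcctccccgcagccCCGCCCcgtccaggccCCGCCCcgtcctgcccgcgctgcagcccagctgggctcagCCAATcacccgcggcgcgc
Acadm, chr3:153944644-153944893, minus strand: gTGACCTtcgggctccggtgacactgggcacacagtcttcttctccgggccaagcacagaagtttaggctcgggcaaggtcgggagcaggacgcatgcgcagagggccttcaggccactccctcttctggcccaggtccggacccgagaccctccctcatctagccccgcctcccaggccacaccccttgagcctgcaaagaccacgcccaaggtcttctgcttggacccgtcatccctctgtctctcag
Hadha, chr5:30154981-30155230, minus strand: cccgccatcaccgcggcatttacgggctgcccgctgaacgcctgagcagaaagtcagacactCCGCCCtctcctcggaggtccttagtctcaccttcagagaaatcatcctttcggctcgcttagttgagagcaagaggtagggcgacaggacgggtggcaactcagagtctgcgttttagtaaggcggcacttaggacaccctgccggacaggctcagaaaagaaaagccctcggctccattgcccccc
Fgf21, chr7:45615491-45615640, minus strand: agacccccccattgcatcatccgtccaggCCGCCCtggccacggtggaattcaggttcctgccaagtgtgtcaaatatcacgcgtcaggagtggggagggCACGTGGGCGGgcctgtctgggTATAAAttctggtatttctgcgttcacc

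All 8 genes had a promoter sequence in the table, and 250 bases before each start were searched. AGGTCA was found before 2 of the 8 genes, Cpt1a at -94 and Acadm at -249, and before 14% of the 32851 promoters in the table. Direct repeats of AGGTCA with 1 base between the copies, the form known for PPARalpha, and with 4 bases between them, the form known for the thyroid hormone receptor, were found before none of the 8 and before 0.0335% and 0.0152% of all promoters. TATAAA lay at -28 of Fgf21 and before no other of the 8 genes (12.4% of all promoters), and CACGTG lay at -50 of Fgf21 (6.02% of all promoters), where its last base is also the first of a GC box. The CCAAT letters were found before Cpt1a, Ehhadh and Pdk4 (33.8% of all promoters) and GGGCGG before 6 of the 8, Acadm and Pdk4 being without it (32.7% of all promoters). Hadha and Hadhb, which encode the α and β subunits of the mitochondrial trifunctional protein, start 273 bases apart on opposite strands, and the stretch shown for Hadha reaches to 23 bases from the start of Hadhb. These matches describe the letters in the windows and are not evidence of a bound factor.

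The liver RNA was that of liver, with all 9 measured hepatocyte markers above reference, and between 75.7% and 85.4% of probes were above background on each array. All 10 probes of the 8 genes were above background on all 10 arrays and saturated on none. The arrays did not all behave alike. On the slide of control 832 and hypothyroid 576, the ratios taken with the dyes as labelled were inverted against the remaining slides (r = -0.974 and -0.978), and those of 10 spike-in transcripts were inverted too (r = -0.994 and -0.996, against 0.994 to 1.0 for the other arrays), so the channels of these 2 arrays were exchanged. The ratios of control 616 were compressed, with a slope of 0.608 on the other arrays, against 0.968 to 1.07 for the rest. Hypothyroid 311 held fat RNA, with Ucp1 at 4.03 and Cfd at 4.04 on the log2 scale against -0.14 to 0.10 and 0.03 to 0.74 on the other 9 arrays. The mean of the 5 tested adipocyte markers, which do not include Ucp1, was 2.27 there and 0.15 to 0.44 in controls. Of the 8 markers listed, Lep and Retn stayed low on hypothyroid 311, at 0.03 each. Exocrine pancreas RNA was present in controls 522, 616 and 832, where the mean of 11 markers was 4.30, 2.62 and 4.17 against 0.96 and 1.00 in the other controls and 0.85 to 1.04 in hypothyroid pups. Of these 11 markers, 8 were lower in hypothyroid pups at an unadjusted p below 0.05, against 4.07% of all probes. The markers did not all run alike on control 616. There Amy2a5 (2.88) and Pnliprp1 (3.51) were the lowest of the 10 arrays, and Ctrb1 had no value. Pnlip, listed but not tested, was at 0.17 on control 616 against 1.94 and 2.01 on controls 522 and 832.

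None of the 8 genes differed between the groups at an adjusted p below 0.05. The mean was higher in hypothyroid pups for 7 genes, by 0.04 to 0.42 log2 units, and lower for Fgf21, but the values of the groups overlapped for each of the 8. By limma with Benjamini-Hochberg adjustment over 32053 probes, 3 probes (0.00936%) had an adjusted p below 0.05, and the adjusted p of the 8 genes lay between 0.628 and 0.960. At an unadjusted p below 0.05, 1 of the 8 genes (Acadm, higher) was called, against 2393 probes (7.47%) in either direction and 3.39% higher. Groups did not overlap for 2.07% of probes. The tendency to higher means rested in large part on control 616: without it 5 of the 8 genes had a higher mean and 3 a lower one, 1 (Acadm) had an unadjusted p below 0.05 against 7.36% of probes, and none was without overlap against 2.91%. With ratios scaled to equal spread on every array 2 were higher and 6 lower.

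**Figure D1:**
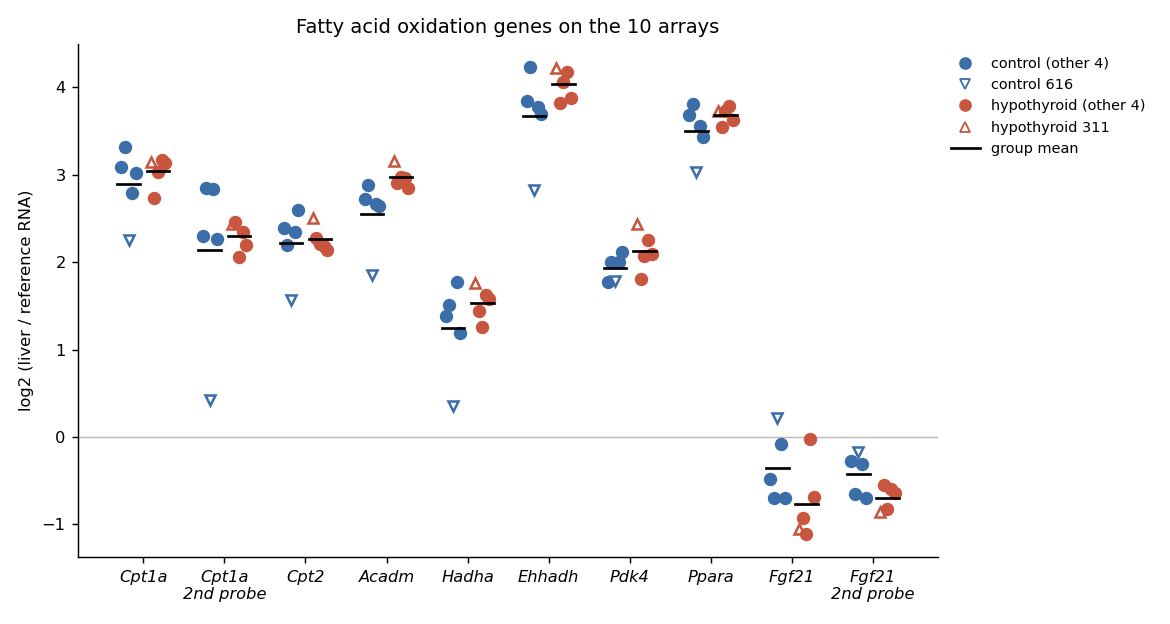
Each point is 1 array, with the log2 ratio of liver to reference RNA on the vertical axis and the genes on the horizontal axis. Blue is control, red is hypothyroid, black lines are group means, and open triangles are control 616 (down) and hypothyroid 311 (up). Control 616 lies lowest of all 10 arrays for 6 of the 8 genes, and the groups overlap for every gene.

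CPT1a, the liver form of the enzyme that commits long-chain fatty acids to mitochondrial oxidation, had no detectable difference in its mRNA. Cpt1a was at 3.09, 3.32, 2.26, 2.80 and 3.02 in controls 391, 522, 616, 832 and 881, and at 3.15, 2.73, 3.03, 3.17 and 3.14 in hypothyroid pups 311, 576, 626, 723 and 891. The highest and the lowest of these 10 values were both controls. The means were 2.90 ± 0.40 and 3.04 ± 0.18 (SD, n = 5 each), 7.45 and 8.25 times the reference. The change was 0.15 ± 0.18 (SE), or 1.11-fold with a 95% interval of 0.847 to 1.45, with an adjusted p of 0.842 by limma and an exact two-sided permutation p of 0.532. It was -0.01 without control 616. The other probe of Cpt1a was at 2.30, 2.85, 0.43, 2.84 and 2.26 in controls and at 2.44, 2.45, 2.06, 2.34 and 2.20 in hypothyroid pups. Its change was 0.16 ± 0.39 with all arrays and -0.26 ± 0.14 without control 616, whose value stands far below the other 9.

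CPT2, which releases the fatty acid from carnitine on the inner side of the mitochondrial membrane, had the smallest difference of the 8 in its mRNA with all arrays, though not without control 616. Cpt2 was at 2.40, 2.20, 1.56, 2.34 and 2.60 in controls and at 2.51, 2.27, 2.21, 2.19 and 2.14 in hypothyroid pups, in the same order of animals. Only hypothyroid 311 was above the control median. The change was 0.04 ± 0.17, or 1.03-fold with a 95% interval of 0.798 to 1.33, with an adjusted p of 0.960 by limma, and it was -0.12 ± 0.10 without control 616 and -0.02 without hypothyroid 311.

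Acadm, which encodes the medium-chain acyl-CoA dehydrogenase, was the gene nearest to a difference. It was at 2.72, 2.88, 1.85, 2.66 and 2.64 in controls and at 3.16, 2.91, 2.98, 2.96 and 2.85 in hypothyroid pups. Of the 5 hypothyroid values 4 lay above every control, while that of hypothyroid 891 lay below control 522. The means were 2.55 ± 0.40 and 2.97 ± 0.12 (SD, n = 5 each), 5.86 and 7.85 times the reference. The change was 0.42 ± 0.17 (SE), or 1.34-fold with a 95% interval of 1.04 to 1.73, with an unadjusted p of 0.0289 and an adjusted p of 0.628 by limma. The exact two-sided permutation p was 0.0159, where 0.00794 is the smallest that 5 against 5 arrays can give. The value of control 616 set much of the size, since the change without it was 0.25 ± 0.08 (unadjusted p = 0.0112, adjusted p = 0.441 by limma). Hypothyroid 311, the array with fat RNA, was the highest of the 10, and without it the change was 0.37 (unadjusted p = 0.0672 by limma). Without both arrays it was 0.20 (unadjusted p = 0.0252 by limma), and with ratios scaled to equal spread it was 0.15 (unadjusted p = 0.262 by limma). The part of the fat RNA in the difference was not tested otherwise.

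HADHA, the α subunit of the trifunctional protein, carries the hydratase and the long-chain hydroxyacyl-CoA dehydrogenase steps. Hadha was at 1.38, 1.51, 0.35, 1.78 and 1.19 in controls and at 1.76, 1.44, 1.26, 1.62 and 1.58 in hypothyroid pups. The hypothyroid values all lay within the range of the controls. The change was 0.29 ± 0.22, or 1.22-fold with a 95% interval of 0.865 to 1.72 (adjusted p = 0.770 by limma), and 0.06 ± 0.13 without control 616.

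The thiolase subunit is encoded by Hadhb, which starts head to head with Hadha. Hadhb was at 2.09, 2.31, 1.34, 2.08 and 2.14 in controls and at 2.46, 2.16, 2.34, 2.38 and 2.45 in hypothyroid pups. Here 4 of 5 hypothyroid values lay above every control. The change of Hadhb was 0.37 ± 0.16 (unadjusted p = 0.0413, adjusted p = 0.657 by limma) and 0.20 without control 616 (unadjusted p = 0.0291 by limma). Whether Hadha and Hadhb differed from each other in their change was not tested.

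EHHADH, the peroxisomal bifunctional enzyme and a classic PPARalpha target, is encoded by Ehhadh, which was at 3.85, 4.23, 2.83, 3.77 and 3.70 in controls and at 4.22, 3.82, 4.07, 4.18 and 3.88 in hypothyroid pups. Control 522 was above all hypothyroid values. The change was 0.36 ± 0.21, or 1.28-fold with a 95% interval of 0.924 to 1.78 (adjusted p = 0.730 by limma), and 0.15 ± 0.12 without control 616. With ratios scaled to equal spread it was -0.03.

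PDK4 phosphorylates and so shuts the pyruvate dehydrogenase complex, which spares glucose while fat is burnt. Pdk4 was at 1.78, 2.0, 1.78, 2.01 and 2.12 in controls and at 2.44, 1.80, 2.08, 2.25 and 2.10 in hypothyroid pups. Hypothyroid 311 and 723 were above every control, and hypothyroid 576 was close to the lowest. The change was 0.20 ± 0.12, or 1.15-fold with a 95% interval of 0.958 to 1.37 (adjusted p = 0.730 by limma). It was 0.16 without control 616, 0.12 without hypothyroid 311, and -0.03 with ratios scaled to equal spread. As hypothyroid 311 held fat RNA and fat expresses Pdk4, the value without it stands here beside the change, and the part of the fat RNA was not tested otherwise.

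Ppara, the gene of the receptor itself, was at 3.69, 3.81, 3.03, 3.56 and 3.44 in controls and at 3.73, 3.55, 3.73, 3.79 and 3.63 in hypothyroid pups. The highest of the 10 was control 522. The change was 0.18 ± 0.13, or 1.13-fold with a 95% interval of 0.929 to 1.38 (adjusted p = 0.754 by limma), and 0.06 ± 0.09 without control 616. It was -0.21 with ratios scaled to equal spread and -0.16 in the liver channel alone.

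FGF21 is a hormone that the liver secretes in fasting and in suckling, under the control of PPARalpha. Fgf21 was at -0.48, -0.70, 0.21, -0.09 and -0.70 in controls and at -1.05, -0.93, -1.11, -0.03 and -0.69 in hypothyroid pups, so that its mean lay below the reference in both groups. The 3 lowest values were hypothyroid (311, 576 and 626), while hypothyroid 723 was among the highest. The change was -0.41 ± 0.23, or 0.753-fold with a 95% interval of 0.527 to 1.08, with an adjusted p of 0.727 by limma and an exact two-sided permutation p of 0.190. The other probe was at -0.27, -0.65, -0.17, -0.31 and -0.69 in controls and at -0.86, -0.55, -0.83, -0.60 and -0.65 in hypothyroid pups. Its spread was narrower, with a change of -0.27 ± 0.12 (unadjusted p = 0.0367, adjusted p = 0.652 by limma). It was also the dimmer probe, with a mean log2 signal of 7.28 against 8.24. Without control 616 the changes of the 2 probes were -0.27 and -0.21. The 2 controls with the highest Fgf21 on the brightest probe, 616 and 832, were among the 3 with pancreas RNA, and pancreas also expresses Fgf21. Control 522, also of the 3, was at -0.70 on that probe, near the lowest control. On the other probe control 391, not of the 3, was above 832, at -0.27 against -0.31. The reference channel of control 616 was low on the brightest probe, at 7.69 against 8.36 to 9.04 on the other arrays. Without the 3 controls with pancreas RNA the change was -0.17 (unadjusted p = 0.511 by limma), and the part of the pancreas RNA was not tested otherwise.

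**Figure D2:**
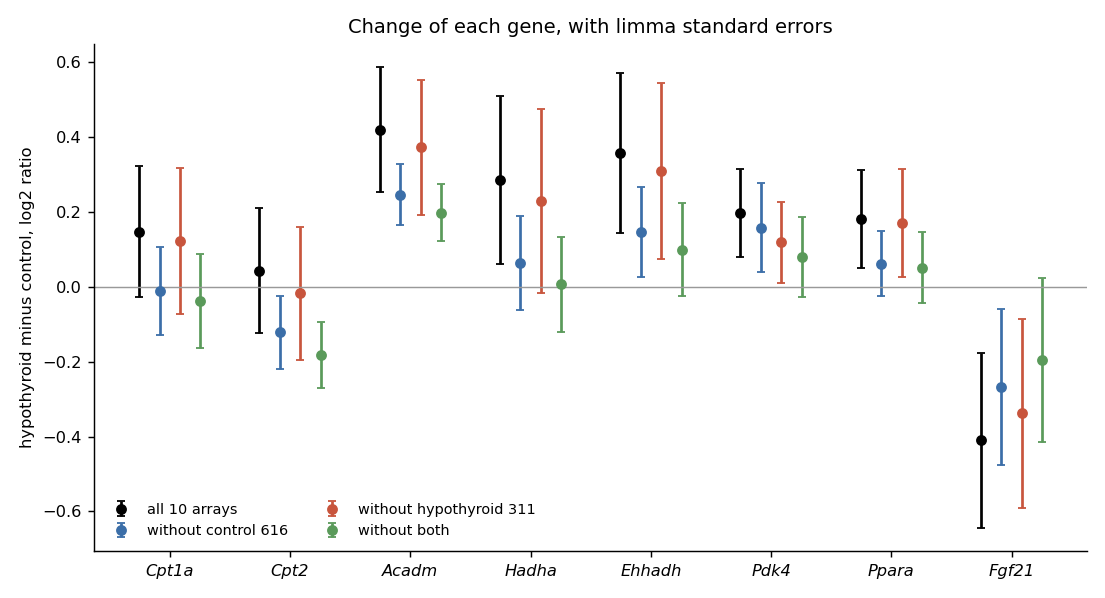
Points are the change of each gene (hypothyroid minus control, log2 ratio) and bars are limma's standard error, with all 10 arrays (black), without control 616 (blue), without hypothyroid 311 (red) and without both (green). The change of Acadm stays above 0 by more than its standard error in all 4 settings, from 0.42 to 0.20, while those of Cpt1a and Cpt2 turn to -0.01 and -0.12 without control 616.

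The 2 groups shared 4 slides, with 1 control and 1 hypothyroid array on each, which allowed a comparison within slides. Acadm was higher in the hypothyroid pup on 4 of 4 slides, by 0.21, 0.25, 0.28 and 1.12, where the last was the slide of control 616. Hadha and Ehhadh were higher on 3 of 4 slides, at -0.34 to 0.90 and -0.01 to 1.24. Cpt1a, Cpt2, Pdk4 and Ppara were each higher on 2 of 4. Fgf21 was lower on 3 of 4, with differences from -1.33 to 0.01. For the 7 genes with a higher mean, the largest difference was on the slide of control 616 except for Pdk4, where it was on the slide of hypothyroid 311 (0.44). With slide as a fixed block Fgf21 also had an unadjusted p below 0.05 (-0.63, unadjusted p = 0.0338 by limma), but 0 probes then had an adjusted p below 0.05.

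The 2 channels were also read separately, on a log2 intensity scale after normalisation. The liver channel of control 616 was below that of all other arrays for 7 of the 8 genes, Fgf21 being the exception, and its reference channel was above all others for 2. For Acadm the liver channel of control 616 was 13.8 against 14.7 to 15.3 on the other arrays, with 11.9 in the reference channel against 12.0 to 12.2. For Hadha both of its channels were low, at 8.49 against 10.2 to 10.7 in liver and 8.13 against 8.55 to 9.09 in reference. In the liver channel alone the difference was 0.45 for Acadm, close to that of its ratio, and -0.10 for Fgf21.

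**Figure D3:**
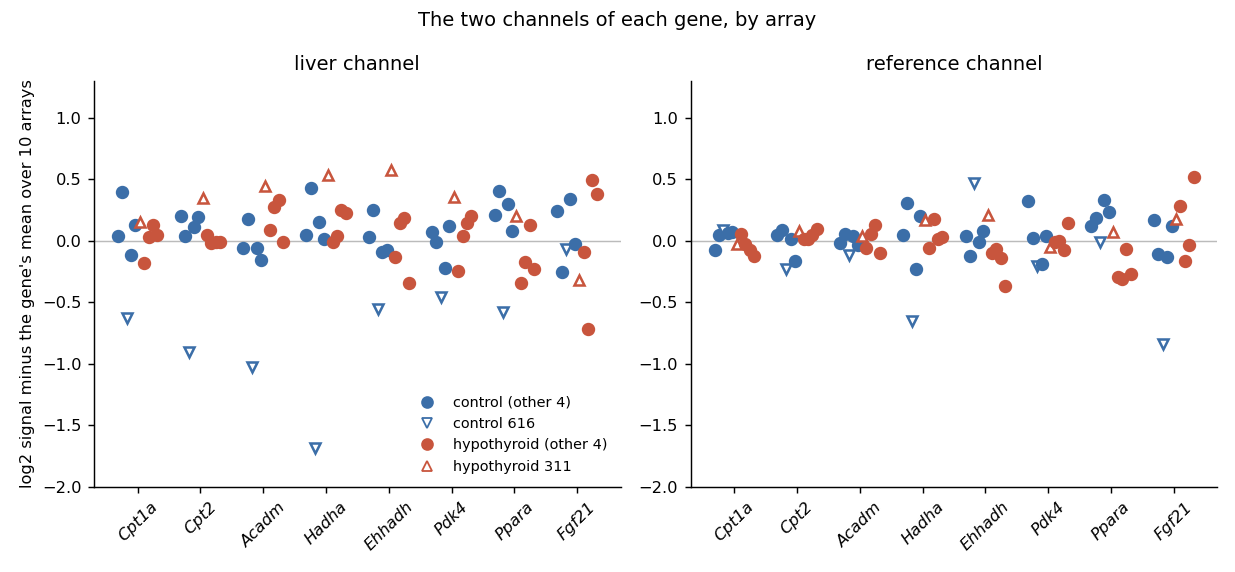
The left panel is the liver channel and the right panel the reference channel, each point being the log2 signal of a gene on 1 array minus the mean of that gene over 10 arrays. Colours and triangles are as in the plot of ratios by array. In the liver channel control 616 lies below all other arrays for every gene but Fgf21, and hypothyroid 311 is the highest for several genes.

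The 8 genes were set beside all probes and beside probes rich in liver. The median change was 0.19 for the 8 genes and -0.01 for all 32053 probes, of which 46.6% were higher in hypothyroid pups. For the 3321 probes at more than 1 log2 unit above reference, however, it was 0.16, with 73.3% higher. Without control 616 these medians were 0.06, 0.00 and 0.03. The 8 genes thus lay close to the liver-rich probes as a whole, and no test was made of the difference.

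The other genes of the pathway shifted in both directions, with differences from -0.90 to 1.1. Of 93 genes listed by role, 92 had a probe and 91 were measured above background, and 62 had a higher and 29 a lower mean in hypothyroid pups, with a median change of 0.18 that was 0.04 without control 616. None had an adjusted p below 0.05. At an unadjusted p below 0.05, 8 were higher and 3 lower, or 12.1% of the list against 7.47% of all probes. Without control 616 the counts were 9 higher and 6 lower, or 15 of the 91 genes against 7.36% of all probes. With ratios scaled to equal spread they were 5 higher and 9 lower, or 14 of the 91 against 6.27% of all probes. With that scaling 47 of the 91 means were higher and 44 lower, so that the direction of the calls depended on the scaling. Groups did not overlap for 1 of them, Acot3, against 2.07% of all probes. The genes with an unadjusted p below 0.05 other than Acot3 and Hadhb, and those called only without control 616, are named below because their numbers were small, after their values were seen.

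Fatty acid uptake and activation had 9 genes, none with an unadjusted p below 0.05, against 7.47% of all probes. Acsl1, the main acyl-CoA synthetase of liver, had a difference of 0.30 ± 0.22, and of 0.13 without control 616. Acsl5, another acyl-CoA synthetase, had a difference of 0.44 ± 0.20 (unadjusted p = 0.0507 by limma), and of 0.22 without control 616 (unadjusted p = 0.0229). In the carnitine shuttle 1 of 8 was called, against the same 7.47% of all probes. It was Crot, the peroxisomal carnitine octanoyltransferase (0.28, unadjusted p = 0.0343 by limma). Its difference was 0.19 without control 616 (unadjusted p = 0.0609) and 0.24 on its other probe (unadjusted p = 0.345). Slc25a20, the carnitine-acylcarnitine carrier, had a difference of 0.39 ± 0.32 and of 0.02 without control 616.

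Mitochondrial β-oxidation had 18 genes, of which 16 had a higher mean. Only Hadhb was called, or 5.56% of these genes against 7.47% of all probes. Acadvl and Acadl, the very-long-chain and long-chain dehydrogenases, had differences of 0.14 ± 0.14 and 0.30 ± 0.17, and of 0.00 and 0.11 without control 616. Hadh, the short-chain hydroxyacyl-CoA dehydrogenase, had a difference of 0.34 ± 0.22, and Acaa2, the mitochondrial thiolase, of 0.49 ± 0.30. Values without control 616 were 0.10 and 0.18 for these 2.

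Peroxisomal oxidation had 16 genes, of which Acot3 and Acot4 were called, or 12.5% against 7.47% of all probes. Both encode peroxisomal thioesterases, which split acyl-CoA into free acid and CoA, and both are regarded as PPARalpha targets. Acot3 was at 1.38, 1.09, 0.44, 1.95 and 1.69 in controls and at 2.44, 2.46, 2.28, 2.38 and 2.04 in hypothyroid pups, and all 5 hypothyroid values were above every control. The change of 1.01 ± 0.24, a 2.01-fold difference, had an unadjusted p of 0.00139 and an adjusted p of 0.291 by limma, and was 0.79 without control 616. Acot4 had a difference of 0.49 ± 0.20 (unadjusted p = 0.0321 by limma), with 0.48 on its other probe (unadjusted p = 0.0533), and its groups overlapped. Without control 616 it was 0.41 (unadjusted p = 0.0597 by limma) and no longer called. The Acot genes are close copies of each other, so that a probe may read more than 1 of them. Acot1, the cytosolic copy, had a difference of 0.01 ± 0.12.

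Without control 616, 2 other peroxisomal genes were called, both lower, where 7.36% of all probes were called in either direction. Abcd3, a peroxisomal membrane transporter, was at 3.15, 2.89, 2.09, 2.67 and 3.14 in controls and at 2.50, 2.43, 2.44, 2.37 and 2.32 in hypothyroid pups. Its difference was -0.38 ± 0.18 (unadjusted p = 0.0558 by limma), and -0.55 without control 616 (unadjusted p = 0.000165). All hypothyroid values were then below the other 4 controls, against 2.91% of all probes without overlap in that setting. Abcd3 had 3 probes, and only the brightest is given. Acot8, a peroxisomal thioesterase, had a difference of -0.19 ± 0.13, and of -0.32 without control 616 (unadjusted p = 0.00162 by limma). Acaa1b, a thiolase, had a difference of 0.35 ± 0.22, and of 0.13 without control 616, and Hsd17b4, the second bifunctional enzyme, of -0.02 ± 0.10. The 4 genes of ω-oxidation were not called. Cyp4a10 and Cyp4a14, the PPARalpha-driven fatty acid hydroxylases, had differences of 0.37 ± 0.29 and 0.51 ± 0.27, and of 0.05 and 0.22 without control 616.

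Ketone synthesis and use had 7 genes and none with an unadjusted p below 0.05, against 7.47% of all probes. Bdh1, the hydroxybutyrate dehydrogenase, was at 3.56, 3.36, 3.50, 3.23 and 3.05 in controls and at 3.58, 3.34, 3.11, 3.61 and 2.95 in hypothyroid pups. Its groups overlapped, and the difference was -0.02 ± 0.14. Oxct1, the ketone-using transferase that liver is known to lack, was at -3.29, -3.13, -0.77, -3.26 and -3.06 in controls and at -3.29, -3.58, -3.48, -3.33 and -3.38 in hypothyroid pups. Its difference was -0.71 ± 0.42 (unadjusted p = 0.119 by limma), with 4 of 5 hypothyroid values below every control, and -0.23 without control 616 (unadjusted p = 0.0166), whose value stands far above the other 9. Bdh2, a cytosolic dehydrogenase, had a difference of 0.21 ± 0.18, and of 0.36 without control 616 (unadjusted p = 0.0250 by limma). Oxct1 had 3 probes and Bdh2 had 2, and only the brightest of each is given.

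Of 5 genes of the pyruvate dehydrogenase switch, Pdp1, the phosphatase that opposes the kinases, had a difference of -0.38 ± 0.09 (unadjusted p = 0.00156, adjusted p = 0.305 by limma), with 4 of 5 hypothyroid values below every control, and its change was -0.37 without control 616. Pdk2 had a difference of 0.30 ± 0.19, and of 0.12 without control 616.

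PPARalpha partners, coregulators and other targets had 24 measured genes. Of these 4 were higher and 2 lower at an unadjusted p below 0.05, against 3.39% and 4.07% of all probes. Pparg, the fat cell relative of PPARalpha, had a difference of 0.40 ± 0.11 (unadjusted p = 0.00454 by limma), and Nrip1 and Ncor1, corepressors of nuclear receptors, of 0.30 (unadjusted p = 0.0223) and 0.20 (unadjusted p = 0.0274). Pparg was highest on hypothyroid 311 (1.69), the array with fat RNA, against 1.28 to 1.52 in the other hypothyroid pups and 0.84 to 1.33 in controls, and the part of the fat RNA was not tested. Fgfr2, a fibroblast growth factor receptor, had a difference of 0.38 (unadjusted p = 0.0230). The other probes of Ncor1 had differences of 0.01 and 0.16 and were not called (unadjusted p = 0.951 and 0.133 by limma). Those of Fgfr2 were also higher, at 0.16 (unadjusted p = 0.0493) and 0.09 (unadjusted p = 0.176).

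Ppargc1b, a coactivator of PPARalpha, was at 0.81, 1.18, 0.58, 0.35 and 0.98 in controls and at -0.03, 0.23, 0.20, 0.41 and 0.27 in hypothyroid pups. Its change was -0.56 ± 0.15 (unadjusted p = 0.00286, adjusted p = 0.363 by limma), its other probe gave -0.47 (unadjusted p = 0.0182), and it was -0.61 without control 616. Ucp2, a mitochondrial carrier, had a difference of -0.28 (unadjusted p = 0.0278 by limma), with -0.04 and -0.13 on its other probes, and of -0.22 without control 616 (unadjusted p = 0.0561), where it was no longer called. Ppargc1a, the coactivator best known from fasting, had a difference of 0.36 ± 0.29, Rxra, the partner receptor, of 0.03 ± 0.07, and Klb, the co-receptor of FGF21, of 0.07 ± 0.11. Angptl4 and Vnn1, PPARalpha targets, had differences of -0.72 ± 0.40 and -0.26 ± 0.15, and none of these 5 had an unadjusted p below 0.05. Without control 616 Vnn1 was called at -0.37 (unadjusted p = 0.0129 by limma), and so was Creb3l3, a liver transcription factor and PPARalpha partner, at 0.19 (unadjusted p = 0.0361), which had a difference of 0.46 ± 0.25 with all arrays.

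**Figure D4:**
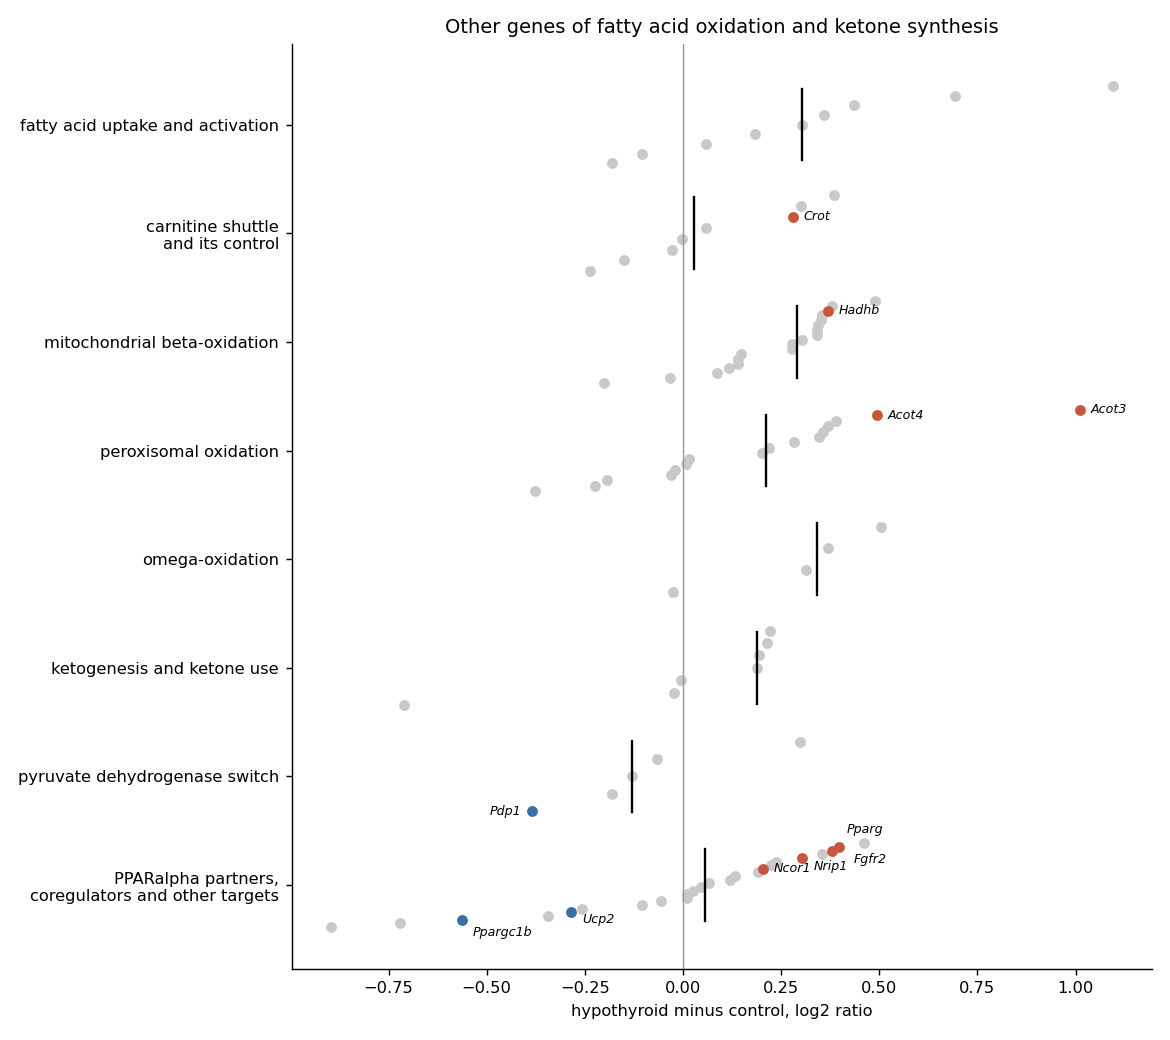
Each point is 1 of 91 genes, grouped by role, with its change (hypothyroid minus control, log2 ratio) on the horizontal axis and its rank within the role on the vertical axis. Red and blue points had an unadjusted p below 0.05 (8 higher, 3 lower), grey points did not, and vertical bars are medians. Most groups have a median above 0, that of the pyruvate dehydrogenase switch is below 0, and Acot3 is the called gene with the largest change.

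Genes known to depend on thyroid hormone were read on the same arrays as a check of the treatment. Dio1, the hepatic deiodinase, had a difference of -0.94 ± 0.34 (unadjusted p = 0.0195, adjusted p = 0.605 by limma). Thrsp had -1.16 ± 0.30 (unadjusted p = 0.00258, adjusted p = 0.344) and Me1 -0.47 ± 0.11 (unadjusted p = 0.00105, adjusted p = 0.272). All 5 hypothyroid values of Me1 were below every control, as for 0.986% of all probes, whereas the groups overlapped for Dio1 and Thrsp. Without control 616 the changes were -1.27, -1.38 and -0.44.

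The gene whose ratios ran most like those of each of the 8 was sought among 20261 probes with a gene name, by Pearson's r over the 9 arrays without control 616. These were Arl4a for Acadm (r = 0.990, and 0.974 with control 616), Afm for Ppara (0.965 and 0.968), Supt5 for Pdk4 (0.991 and 0.890) and Nucb1 for Hadha (0.981 and 0.885). Those of the other 4 did not hold over all 10 arrays, with Paip2 for Cpt1a (0.976 and 0.269), Klhl22 for Cpt2 (0.932 and -0.05), Theg for Ehhadh (0.956 and 0.301) and Fam107b for Fgf21 (0.972 and 0.247). These are the highest of many correlations over few arrays of 2 groups and are given as a description.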

How the data were processed

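The 8 genes and all lists were chosen with earlier results of these data known. For each array the authors deposited the median intensity of both channels and of their background, which is not normalised, and the processed signal intensity of the scanner software (Agilent Feature Extraction). Per the labels Cy5 is liver on every array, and the channels of control 832 and hypothyroid 576 were exchanged for the reasons given above. Control spots and outlier spots were left out, and repeated spots were averaged. Signals were corrected with normexp (offset 50) and loess (span 0.2). A probe was kept if liver was above the trimmed mean (5%) plus 3 trimmed SDs of negative control spots on at least 4 of 5 arrays of a group, which left 32053 of 41174 probes, 20488 of them named by accession in RefSeq (GRCm38.p6). Groups were compared with limma 3.58.1 in R 4.3.3 (statmod 1.5.0 and data.table, version 1.17.8) at an adjusted p of 0.05, and each of the 8 genes also with an exact permutation test. The number of arrays limits the precision.

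Genes named were the 8, 22 of the wider list picked by role, up to 4 more in each direction with an unadjusted p below 0.05 and no overlap, 3 treatment checks and the gene most like each of the 8. Acot3 alone met the rule on no overlap. Other called genes were few and were named with their values known. Some genes are not reported here. Alternatives were no background correction, the scanner's processed signals, centring by the median, loess with a span of 0.3, other filters, slide as a block, the dyes as labelled, no slide of control 832, the study's Fs test with 100 shuffles, probes averaged, and each array left out. Equal spread, the liver channel alone and 2 sets of arrays left out were added after the data were seen. The programs were tested on simulated data. miRNA cards and serum hormone were not used here.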

Additional observations from a re-analysis of the deposited data

Results flagged for a closer look

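In 20 groups of 5 arrays (10 probes in 2 groups), 2 had 1 array far from the other 4. Chance gives about 1 in 20 for independent groups, but these 20 came from the same 10 arrays, so that rate does not apply here. In both, the far array was control 616. For the other probe of Cpt1a its gap to the next control was 0.756 of the range of the controls (0.43 against 2.26 to 2.85), and for Acadm it was 0.762 (1.85 against 2.64 to 2.88). Control 616 was also the array with compressed ratios, with a slope of 0.608.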

How the results depend on the processing

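Over 200 values of the 8 genes under the alternatives, 187 kept their direction and side of the threshold, 13 turned in sign, and none reached an adjusted p below 0.05 (0.412 to 1.0). Acadm, Hadha and Fgf21 kept their sign throughout. With 1 array left out Cpt1a lay between -0.012 and 0.25 and Cpt2 between -0.12 and 0.14, both lowest without control 616, and Cpt2 was -0.017 without hypothyroid 311. With ratios scaled to equal spread Cpt1a was -0.16, Cpt2 -0.17, Ehhadh -0.033, Pdk4 -0.029 and Ppara -0.21. In the liver channel alone Ppara was -0.16. Without control 616 and hypothyroid 311 Cpt1a was -0.038 and Cpt2 -0.18, and without controls 522, 616 and 832 they were -0.0097 and -0.23. The cause was not tested.

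Probes with an adjusted p below 0.05 (3) were 8 without background correction, 1 with processed signals, 1 with median centring, 5 when above background on all 10 arrays, 0 with slide as a fixed block, 14 with it as a random block, 0 with the dyes as labelled, 0 without the slide of control 832, 13 by the Fs test, 1 in the liver channel alone, 12 without control 616 and hypothyroid 311, and 1 without controls 522, 616 and 832. With 1 array left out they were 1 to 33, the highest without control 616. Probes with an unadjusted p below 0.05 (2393) were 317 with median centring, which moved the median of all probes to 0.09, and 106 with the dyes as labelled. With 1 array left out they were 1692 to 3033.

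Of the 8 genes, those with an unadjusted p below 0.05 (1) were 0 with median centring, 2 with slide as a fixed block (Acadm and Fgf21), 0 with the dyes as labelled and 0 with equal spread. The shares of all probes called in these settings were 0.989%, 6.97%, 0.331% and 6.27%, in that order. With 1 array left out the genes called were 0 (without hypothyroid 311) to 2, against 5.28% to 9.46% of all probes. The 2 were Acadm and Ehhadh without control 522, Acadm and Pdk4 without hypothyroid 576, and Acadm and Fgf21 without hypothyroid 723. Without the slide of control 832 the 1 gene, against 7.43% of all probes, was Pdk4 (0.30, unadjusted p = 0.0293 by limma), and Acadm had an unadjusted p of 0.0512. In the wider list (11) they were 5 with processed signals, 3 with median centring and 0 with the dyes as labelled, against 6.4%, 0.989% and 0.331% of all probes. They were 18 in the liver channel alone and 17 without control 616 and hypothyroid 311, against 5.57% and 7.68% of all probes. Leaving out 1 array gave 7 to 17, against 5.28% to 9.46% of all probes. No paired analysis was possible because the 2 groups share no animal number. The 4 slides with both groups gave differences within slides and a fit with slide as a block instead.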
